A study of Mus musculus with 4 samples.

Results

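The Zfp genes are the mouse genes named as zinc finger proteins by a number, and they were studied through the open chromatin at their ends. Members were the protein-coding genes of the RefSeq annotation of GRCm38 whose symbol is Zfp followed by digits alone, 367 of 21900 protein-coding genes. A deposited peak within 1000 bases of either end of the gene span was counted as a peak of that gene. By this rule 39 of the 367 Zfp genes had a peak, and 39 of the 3187 deposited peaks belonged to a Zfp gene. The rule used gene names and positions and no read count, but it was set with earlier results of these data known.

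Chromatin accessibility had been profiled by ATAC-seq, in which the transposase Tn5 cuts and tags DNA that is not wrapped in nucleosomes. Each library came from spleen CD8+ T cells of OTI:Cas9 mice, isolated with magnetic beads, cultured, and electroporated with Cas9 protein carrying a synthetic guide RNA. In the sgPrdm12 group (2 libraries, genotype label Prdm12-ko) the guide targeted Prdm12, the gene of a PR domain zinc finger protein. In the sgNTC group (2 libraries, genotype label Prdm12-wt) the label names the guide sgNTC, the protocol lists it in the electroporated complexes, and the series text speaks of control cells without editing. Both groups therefore share the OTI:Cas9 background and, per the labels, the RNP treatment. Replicate 1 of each group is labelled batch 1 and replicate 2 batch 2. Separate animals or cultures are not named for the replicates. The p-values below therefore measure the spread between libraries alone, and that spread may be technical.

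Most mouse Zfp genes encode proteins with arrays of cysteine-histidine zinc fingers that bind DNA. Many carry a KRAB domain, which recruits the corepressor Trim28 and through it the histone methyltransferase Setdb1 and heterochromatin proteins, and these are best known for silencing transposable elements. KRAB zinc finger genes multiplied by tandem duplication and lie in clusters, while other members are single genes with conserved, general roles in transcription or RNA metabolism. The symbol is a name and not a domain call, so the set is mixed.

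The sequence before the start is shown for promoters whose peak reaches into it: Zfp367 and Zfp473, among the highest peaks, and Zfp628 and Zfp784 of a chromosome 7 cluster in which every gene had a peak. The sequences are from RefSeq, build GRCm38.p6, and give the 250 bases before the start, read 5' to 3' on the gene's strand. Capitals mark matches on either strand to the GC box GGGCGG, the ETS motif CCGGAAG, the CRE motif TGACGTCA or the CCAAT box CCAAT. The letters TATAAA and AAGATGGCG (bound by YY1) and the 10-base palindrome bound by NRF1 were also searched. None of these motifs contains another.
Zfp367 (chr13:64153200-64153449, minus strand): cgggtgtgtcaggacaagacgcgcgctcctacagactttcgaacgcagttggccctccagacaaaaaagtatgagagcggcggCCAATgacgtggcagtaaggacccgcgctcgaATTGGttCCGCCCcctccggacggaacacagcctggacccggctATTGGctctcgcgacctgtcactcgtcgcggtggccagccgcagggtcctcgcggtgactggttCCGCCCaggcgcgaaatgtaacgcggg
Zfp473 (chr7:44748618-44748867, minus strand): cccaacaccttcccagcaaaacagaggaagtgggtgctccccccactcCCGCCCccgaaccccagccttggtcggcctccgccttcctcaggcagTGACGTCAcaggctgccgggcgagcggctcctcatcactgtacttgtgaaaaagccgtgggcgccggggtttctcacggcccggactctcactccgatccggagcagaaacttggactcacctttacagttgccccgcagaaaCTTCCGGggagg
Zfp628 (chr7:4914967-4915216, plus strand): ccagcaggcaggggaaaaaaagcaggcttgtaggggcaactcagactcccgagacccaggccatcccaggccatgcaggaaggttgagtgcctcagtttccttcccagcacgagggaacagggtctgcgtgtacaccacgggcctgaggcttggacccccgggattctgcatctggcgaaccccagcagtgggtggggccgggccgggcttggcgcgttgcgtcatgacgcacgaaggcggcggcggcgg
Zfp784 (chr7:5038447-5038696, minus strand): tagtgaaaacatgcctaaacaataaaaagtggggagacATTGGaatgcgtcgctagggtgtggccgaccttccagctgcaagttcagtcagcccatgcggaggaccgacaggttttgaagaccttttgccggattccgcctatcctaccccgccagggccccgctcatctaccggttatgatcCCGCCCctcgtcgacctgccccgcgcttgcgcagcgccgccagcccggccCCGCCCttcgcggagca
The peak covers all 250 bases in Zfp367 and Zfp473, 229 in Zfp784 and 65 in Zfp628. The Zfp367 stretch holds 2 GC boxes and 3 CCAAT boxes, that of Zfp473 has 1 GC box, 1 ETS and 1 CRE match, and that of Zfp784 has 2 GC boxes and 1 CCAAT box. The Zfp628 stretch holds no match to the letters searched.

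Reads in the table numbered 29043 and 20427 in sgPrdm12 replicates 1 and 2 and 28749 and 58068 in sgNTC replicates 1 and 2. In sgPrdm12 replicate 2, 64.9% of reads lay in peaks at gene ends, against 73.5% in sgPrdm12 replicate 1 and 70.0% and 74.3% in sgNTC replicates 1 and 2. This library therefore stands apart in the class of peaks to which all Zfp peaks belong. The labelled cell type could not be checked, since none of the 5 annotated CD8 T cell marker genes (such as Cd8a and Cd3e) had a peak. The marker lists of B cells (5 genes), myeloid cells (5), NK cells (3) and erythroid cells (4) also had no peak. Of the 3 CD4 and regulatory T cell markers, Zbtb7b had a peak, with 1.03 and 4.41 reads per 10000 in sgPrdm12 and 0.696 and 1.89 in sgNTC. The part of other cell types in the values below was not tested.

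The Zfp genes with a peak made up 10.6% of the set (39 of 367), and 328 had none. Among the other protein-coding genes 11.4% (2452 of 21533) had a peak by the same rule. Having a peak means here being listed in the deposited table, and a gene without one is not shown to be closed. The genes with a peak lay on 14 of the 20 chromosomes that hold Zfp genes. On chromosome 7 they were Zfp628, Zfp579, Zfp524, Zfp865, Zfp784, Zfp580, Zfp180, Zfp566, Zfp473, Zfp143, Zfp771, Zfp668, Zfp646 and Zfp511. On chromosome 8 they were Zfp868, Zfp869, Zfp319 and Zfp1, on 13 Zfp346, Zfp367 and Zfp131, and on 16 Zfp263, Zfp148 and Zfp654. Chromosomes 3 (Zfp639, Zfp687), 5 (Zfp664, Zfp12), 9 (Zfp317, Zfp653), 11 (Zfp62, Zfp672) and 17 (Zfp13, Zfp414) had a pair each. Single genes were Zfp408 on 2, Zfp277 on 12, Zfp438 on 18, Zfp91 on 19 and Zfp300 on X.

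The chromosomes differed in how many of their Zfp genes had a peak. Chromosome 7 holds the most, and 14 of its 90 had a peak (15.6%), beside 11.5% of all protein-coding genes there. On chromosome 17 it was 2 of 41 (4.88%), beside 13.4% of all protein-coding genes there. On chromosome 2 it was 1 of 24 (4.17%), beside 10.0%. On chromosome 4 none of 27 had a peak, beside 11.5% of all protein-coding genes there, and on chromosome 6 none of 17, beside 9.68%. Chromosomes 15, 10, 14 and 1 hold 10, 5, 5 and 4 Zfp genes, none with a peak. On chromosome 16, 3 of 5 had one. These shares are descriptions and were not tested.

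**Figure D1:**
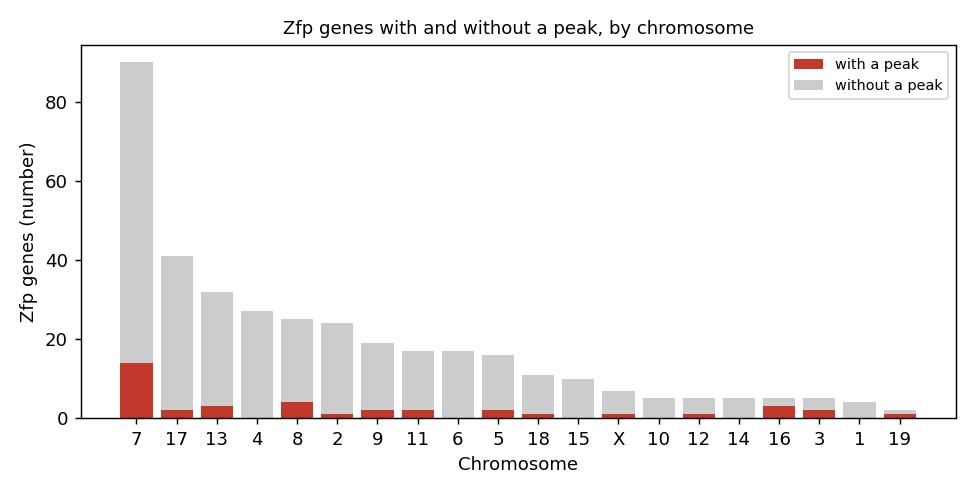
Number of Zfp genes on each chromosome, with a peak in red and without one in grey, in order of the number of genes. Chromosome 7 has 14 genes with a peak among 90, chromosome 17 has 2 among 41 and chromosome 4 has none among 27.

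Zfp genes in clusters and outside them were set side by side. A cluster was defined as 3 or more Zfp genes, each within 500000 bases of the next, which gave 33 clusters with 224 genes. In clusters 18 genes had a peak (8.04%), and outside them 21 of 143 (14.7%). By the distance rule no gene had a peak in 23 of the 33 clusters, which hold 128 genes. The largest of these were 20 genes on chromosome 13 (66670274 to 67827000) and 16 genes on chromosome 4 (145510759 to 147849126). Peaks beyond the distance limit from both gene ends were not counted, so these 23 clusters are not shown to be empty of peaks. Zfp787, a gene in these clusters, had such a peak near an annotated start inside its span. The 7 clusters with 10 or more genes hold 109 genes, of which 7 had a peak.

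A single cluster had a peak at every gene. It spans 0.139 megabases of chromosome 7 (4915181 to 5053723) and holds Zfp628, Zfp579, Zfp524, Zfp865, Zfp784 and Zfp580. Zfp784 and Zfp580 count through the same peak, which covers an annotated start of Zfp784 and none of Zfp580. The Zfp524 peak is shared with Fiz1. A cluster of 10 genes further along chromosome 7 (127233061 to 127885996) had peaks at Zfp771, Zfp668 and Zfp646, and a cluster of 6 genes on chromosome 8 (69209018 to 69774911) at Zfp868 and Zfp869. The other 7 clusters with a peak had it at 1 gene each. In 6 of these 7 that gene was the first or the last of its cluster: Zfp13 in a cluster of 23 genes, Zfp180 in 14, Zfp414 in 11, Zfp653 in 5, and Zfp263 and Zfp12 in 3 each. The exception was Zfp566, inside a cluster of 15 on chromosome 7. First and last positions are 14 of the 74 gene positions in those 7 clusters. This pooled share is too low a base for 1 gene per cluster, because the clusters differ in size. In a cluster of 3, every gene but the middle one is first or last. The place of these genes at cluster ends was noticed after the values were seen and was not tested.

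The peaks lay at gene starts. RefSeq promoter windows, which run from 250 bases before to 50 after an annotated start, were found for 305 of the 367 Zfp genes and for 34 of the 39 with a peak, and their strand gives the direction. Of the 41 gene and peak combinations, 36 had such a window. In 34 of them the peak was nearer the 5' end of the gene, and in 23 it covered an annotated start. For the 33 combinations with the peak's centre within 1000 bases of a start, the centre lay at -732.5 to 331 bases from the start, negative meaning upstream, with a median of -15 bases. The remaining combinations were the shared peak of Zfp580, whose nearest window lies further away, a peak at the 3' end of Zfp771, and a second, weak peak at the 3' end of Zfp868. No accepted peak was farther than 382 bases from a gene end (Zfp771), and the nearest gene outside the limit was Zfp688, with a peak at 1098 bases. Zfp peaks had a median width of 421 bases (270 to 1145), and the other 1944 gene-end peaks had a median of 417.

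**Figure D2:**
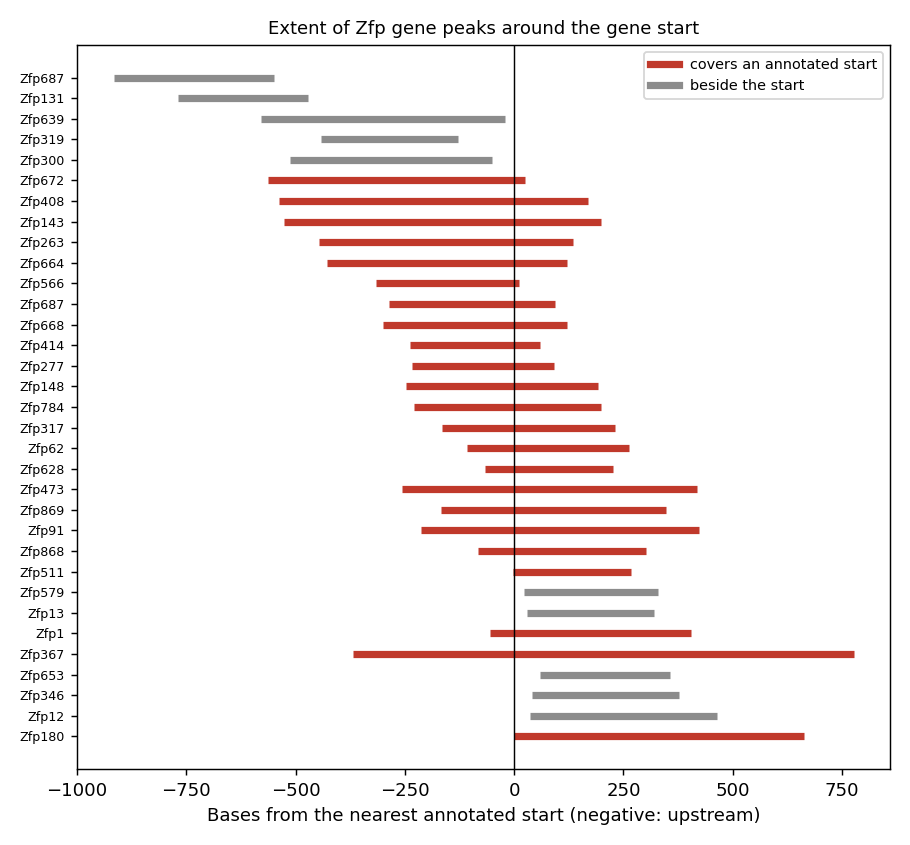
Extent of each Zfp peak around the nearest annotated start of its gene, in bases, with upstream to the left, for the 33 combinations centred within 1000 bases of a start. Red bars cover a start and grey bars lie beside it; peak centres range from -732.5 to 331 bases.

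Some Zfp promoters share their peak with a neighbour. Of the 39 peaks, 14 also lay within 1000 bases of the end of another protein-coding gene. Of these, 2 joined neighbouring Zfp genes (Zfp668 with Zfp646, and Zfp784 with Zfp580), and 12 joined a Zfp gene to a gene outside the set. The 5 highest peaks joined to a gene outside the set were shared by Zfp473 with Vrk3, Zfp408 with Arhgap1, Zfp91 with Lpxn, which encodes an adhesion adaptor of blood cells, Zfp664 with Ccdc92, and Zfp524 with Fiz1. Reads in such a peak cannot be given to either gene.

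The whole promoter windows of Zfp genes with a peak were set beside those of Zfp genes without one, as a description. A gene can have several windows, and a peak overlapped 37 of the 48 windows of the genes with a peak. A peak also overlapped 3 of the 320 windows of the genes without one, at starts inside the gene span, where the peak lies farther than 1000 bases from the gene's ends. The 48 windows of the 34 genes with a peak had a median GC content of 60.7% and a median observed over expected CpG ratio of 0.79. The 320 windows of the 271 genes without a peak had medians of 54.0% and 0.60. Those of the cluster on chromosome 4 without a peak had medians of 43.0% and 0.36 (15 windows), and those of the fully marked cluster on chromosome 7 had 64.2% and 0.78 (4 windows). A cluster of 9 genes on chromosome 6, also without a peak by the rule of 1000 bases, had 66.3% and 0.71 (9 windows). Its medians lay nearer those of the fully marked cluster than those of the cluster on chromosome 4. Only these clusters are compared here, and the part of base composition in which clusters have a peak was not tested. The 40 Zfp windows that a peak overlapped had medians of 60.3% and 0.78, and the 2092 such windows of other genes 63.0% and 0.87. The GC box was found in 31 of the 48 windows of genes with a peak (64.6%), 132 of the 320 of genes without one and 46.2% of all 21263 promoter windows. Among windows that a peak overlapped it was found in 24 of the 40 of Zfp genes (60.0%) and in 76.7% of the 2092 of other genes. The ETS motif was found in 12 of 48 (25.0%) and 69 of 320 (21.6%), and in 11.6% of all windows. The CRE motif was found in 5 of 48 (10.4%) and 8 of 320 (2.50%), and in 2.23% of all windows. The CCAAT box was in 21 of 48 and 157 of 320 (38.2% of all), TATAAA in 3 and 23 (12.6%), the NRF1 letters in 3 and 9 (1.33%), and the YY1 letters in 0 and 10 (1.83%). Among windows that a peak overlapped, ETS was in 32.5% of the 40 of Zfp genes and 27.3% of the 2092 of other genes. CRE was in 12.5% and 4.59% of these, and the NRF1 letters in 5.0% and 5.45%. A match is no evidence that a factor is bound.

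Repeated sequence also differed between the promoters with and without a peak. A window was called repeated if any 36 bases of it also occur, on either strand, in the window of another protein-coding gene that does not overlap it. Among windows of Zfp genes with a peak 0 of 48 were repeated, against 55 of 320 (17.2%) among those without one. In clusters the share without a peak was 48 of 196 (24.5%), outside clusters 7 of 124 (5.65%), and over all promoter windows 10.3%. Of the other genes' windows overlapped by a peak, 8 of 2092 (0.38%) were repeated. How the authors treated reads that match several places is not stated in the labels or headers, and its part in which genes have a peak was not tested.

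The level of a peak is given as reads per 10000 reads of its library in the table. Zfp peaks had a median level, over the 4 libraries, of 2.89 (range 0.907 to 7.18), and the other gene-end peaks 3.14. In raw reads the median Zfp peak held 10 and 6 reads in the sgPrdm12 libraries and 9 and 19 in the sgNTC libraries, so counting error is large at each peak. Reads were found in all 4 libraries at 38 of the 39 peaks. The exception was the 3' peak of Zfp868 (chromosome 8, 69610441 to 69610770), with 0 and 6 reads in sgPrdm12 and 1 and 2 reads in sgNTC. A count of 0 in sgPrdm12 replicate 1 allows up to 1.03 reads per 10000 (3 reads), and this limit covers counting error only.

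The highest Zfp peak was that of Zfp865 (chromosome 7, 5020144 to 5020719). It had 4.82 and 11.3 reads per 10000 in sgPrdm12 replicates 1 and 2, and 7.30 and 5.34 in sgNTC. The sgPrdm12 libraries lay on both sides of the sgNTC libraries. Zfp367 (chromosome 13, 64152423 to 64153567), the widest Zfp peak, had 8.95 and 2.94 in sgPrdm12 and 8.00 and 7.06 in sgNTC. Zfp180 (chromosome 7, 24081897 to 24082559) had 8.26 and 3.92 in sgPrdm12 and 8.00 and 5.68 in sgNTC. In both, sgPrdm12 replicate 1 was the highest library and sgPrdm12 replicate 2 the lowest. Zfp473, whose human relative takes part in the processing of histone messenger RNA, had 8.61 and 5.39 in sgPrdm12 and 4.17 and 7.06 in sgNTC (chromosome 7, 44748198 to 44748874). Zfp438 (chromosome 18, 5334468 to 5335157) had 9.30 and 3.43 in sgPrdm12 and 4.52 and 7.75 in sgNTC. Neither gene separated the groups.

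Zfp143 encodes an activator that binds many housekeeping and small nuclear RNA promoters. Its peak (chromosome 7, 110061176 to 110061901) had 5.85 and 4.41 reads per 10000 in sgPrdm12 and 7.65 and 7.06 in sgNTC. Among the 10 highest Zfp peaks it and Zfp869 were the members whose groups did not overlap, both with sgPrdm12 lower. Of all 3187 peaks, 20.3% had groups that did not overlap with sgPrdm12 lower, and 12.5% with sgPrdm12 higher. Zfp869 (chromosome 8, 69716554 to 69717069) had 3.79 and 4.90 in sgPrdm12 and 6.96 and 5.68 in sgNTC. Zfp408 (chromosome 2, 91649622 to 91650328) had 6.54 and 6.36 in sgPrdm12 and 4.52 and 6.89 in sgNTC. Zfp91, a ubiquitin ligase gene of non-canonical NF-kB signalling, had 5.16 and 5.87 in sgPrdm12 and 4.17 and 7.58 in sgNTC (chromosome 19, 12795701 to 12796336). Zfp664 (chromosome 5, 124862277 to 124862826) had 5.16 and 5.39 in sgPrdm12 and 4.87 and 6.20 in sgNTC. In these 3 genes both sgPrdm12 values lay between the sgNTC values.

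**Figure D3:**
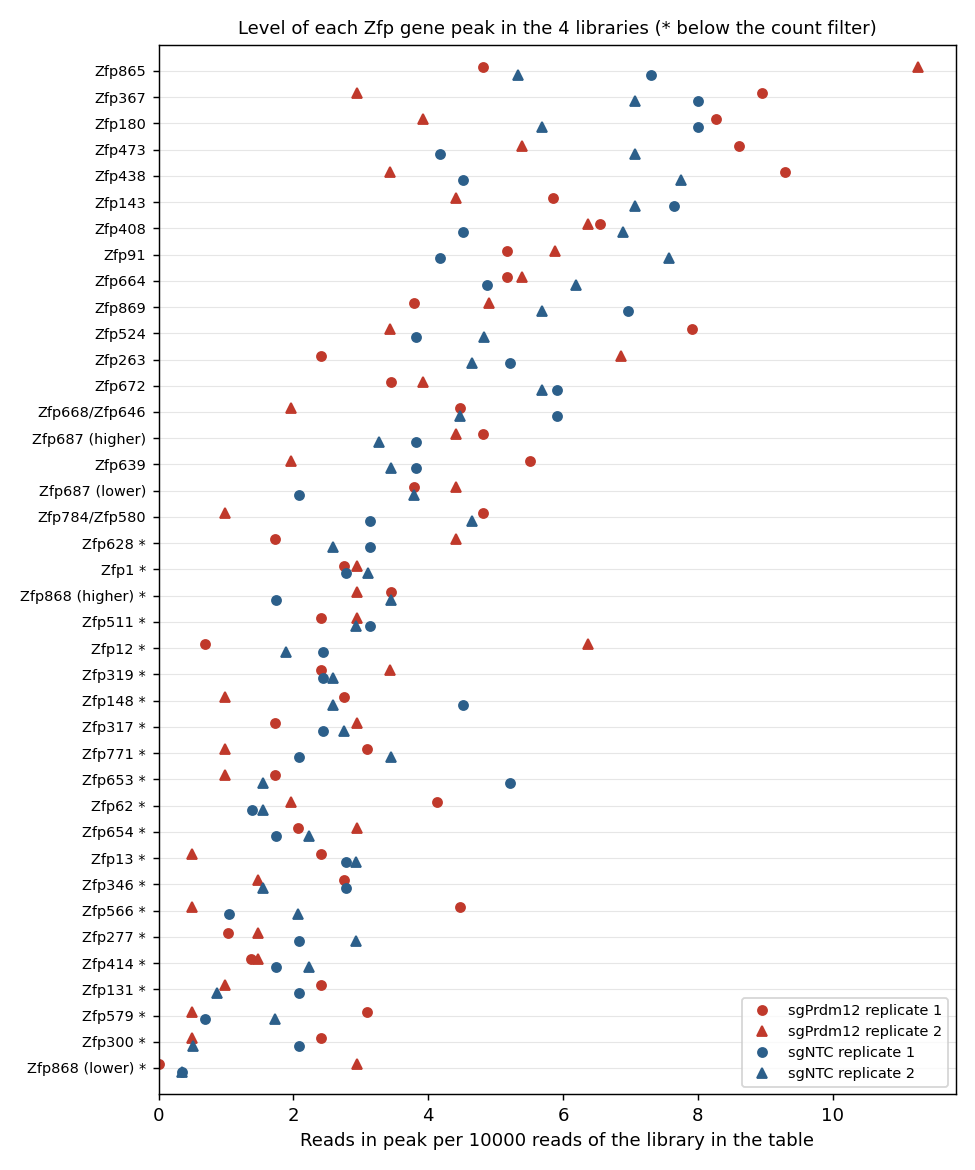
Reads per 10000 reads of the library in the table, at each of the 39 Zfp peaks, highest mean at the top. The sgPrdm12 libraries are in red above sgNTC in blue, with circles for replicate 1 and triangles for replicate 2. At most peaks the groups overlap, and the means run from 0.907 to 7.18. An asterisk marks peaks with too few reads to be tested.

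None of the Zfp peaks tested was called different in sgPrdm12 and sgNTC cells. The test, edgeR's quasi-likelihood test on all peaks that passed its count filter, covered 18 of the 39 Zfp peaks (19 genes). Of these 0 were higher and 0 lower at a Benjamini-Hochberg adjusted p of 0.05, and the share called among all 1125 tested peaks was also 0.0%. At an unadjusted p of 0.05 edgeR gave 0 of 18 Zfp peaks and 5.07% of all tested peaks. In sgPrdm12 3.02% of all tested peaks were higher at that level and 2.04% lower. DESeq2, on all 39 Zfp peaks, gave 0 at either threshold, where it called 0.0% of all 3186 peaks at the adjusted and 0.879% at the unadjusted one. The edgeR adjusted p of the 18 ran from 0.97 to 1.00. The median log2 fold change, sgPrdm12 over sgNTC, was -0.0046 over the 18, with 9 above 0 and 9 below, and 0.020 over all tested peaks. The median standard error was 0.39, larger than the median absolute log2 fold change of 0.31. The 95% interval lay within 4-fold at all 18 and within 2-fold at 7.

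The most positive log2 fold change among the tested Zfp peaks was that of Zfp524 (chromosome 7, 5014783 to 5015362). It had 7.92 and 3.43 reads per 10000 in sgPrdm12 and 3.83 and 4.82 in sgNTC, and a log2 fold change of 0.49 ± 0.40 (SE). Its sgPrdm12 libraries lay on both sides of the sgNTC libraries. Zfp687, whose human relative is mutated in a form of Paget disease of bone, had neighbouring peaks on chromosome 3. The one upstream (95016007 to 95016372) had 4.82 and 4.41 in sgPrdm12 and 3.83 and 3.27 in sgNTC, with a log2 fold change of 0.48 ± 0.43. Both sgPrdm12 libraries were above both sgNTC libraries. The one at the start (95015364 to 95015743) had 3.79 and 4.41 in sgPrdm12 and 2.09 and 3.79 in sgNTC, with 0.43 ± 0.53. Zfp865 had 0.40 ± 0.37 and Zfp473 had 0.34 ± 0.35. None of these passed the test (edgeR adjusted p of 0.97 to 1.00).

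The most negative was that of Zfp672 (chromosome 11, 58330315 to 58330901), whose peak is shared with Sh3bp5l. It had 3.44 and 3.92 reads per 10000 in sgPrdm12 and 5.91 and 5.68 in sgNTC, and its log2 fold change was -0.59 ± 0.40. The groups did not overlap, but the edgeR adjusted p was 0.97. The peak between Zfp668, whose human relative is linked to DNA repair, and Zfp646 (chromosome 7, 127876716 to 127877136) had 4.48 and 1.96 in sgPrdm12 and 5.91 and 4.48 in sgNTC, with -0.47 ± 0.41. Zfp869 had -0.46 ± 0.41 and Zfp143 had -0.41 ± 0.34. The peak between Zfp784 and Zfp580 (chromosome 7, 5038247 to 5038675) had 4.82 and 0.979 in sgPrdm12 and 3.13 and 4.65 in sgNTC, with -0.29 ± 0.54. Here sgPrdm12 replicate 1 was the highest library and replicate 2 the lowest, at 2 reads.

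**Figure D4:**
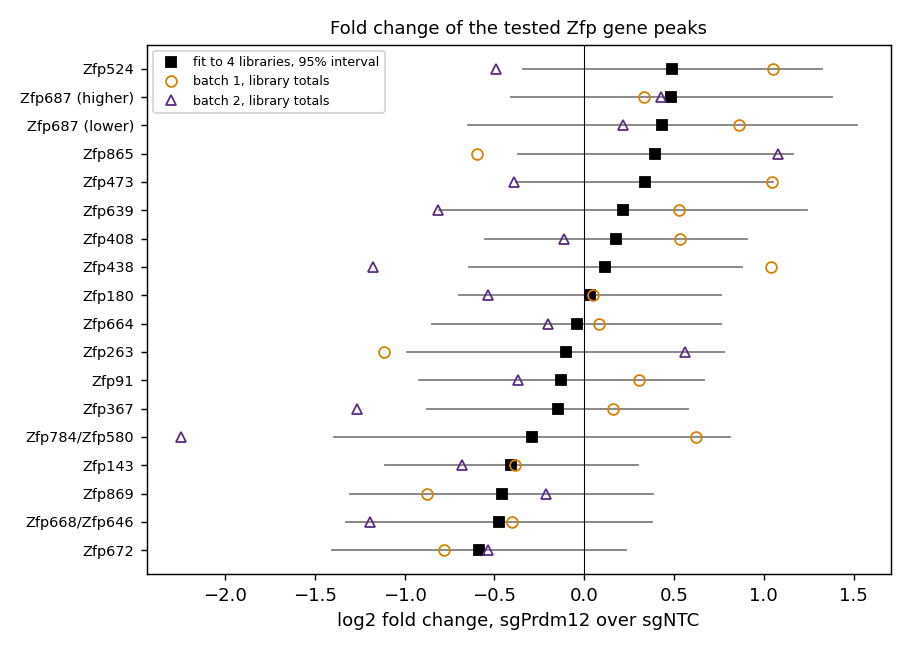
log2 fold change, sgPrdm12 over sgNTC, of the 18 tested Zfp peaks (black squares) with the 95% interval of edgeR's fit (grey lines), and the log2 ratio within batch 1 (circles) and batch 2 (triangles) after scaling by library totals. All 18 intervals include 0, and at many peaks the batches lie on opposite sides of 0.

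The batches often disagreed in direction. Of the 38 Zfp peaks with reads in every library, 5 were higher in sgPrdm12 in both batches, 11 were lower in both, and 22 (57.9%) had opposite signs after scaling by library totals. Among the other 1845 gene-end peaks with reads in every library 48.0% had opposite signs. The shares of those peaks higher or lower in both batches were not computed, so the counts of 5 and 11 have no comparison here. In batch 1 the median log2 ratio of the Zfp peaks was 0.07, and in batch 2 it was -0.30. The other gene-end peaks had 0.08 and -0.27, so the Zfp medians moved with the class. At Zfp865 the ratio was -0.60 in batch 1 and 1.08 in batch 2, and at Zfp438 it was 1.04 and -1.18. At Zfp672 it was -0.78 and -0.54.

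After scaling by library totals the groups did not overlap at 9 of the 39 Zfp peaks. Both sgPrdm12 libraries were above both sgNTC libraries at 2 Zfp peaks (Zfp62 and the upstream peak of Zfp687), where 12.5% of all 3187 peaks did so. Both were below at 7 Zfp peaks (Zfp143, Zfp869, Zfp672, the peak of Zfp668 and Zfp646, Zfp13, Zfp277 and Zfp414), where 20.3% of all peaks did so. With TMM scaling it was 3 higher and 6 lower, beside 15.5% and 17.2% of all peaks. The peak of Zfp668 and Zfp646 then overlapped, and the Zfp687 peak at the start did not.

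The remaining Zfp peaks were below the count filter, and each held at most 20 reads in any library. At 4 of them the groups did not overlap after scaling by library totals. Over all 3187 peaks this was so at 12.5% with sgPrdm12 higher and at 20.3% with sgPrdm12 lower. Zfp62 (chromosome 11, 49203624 to 49203993) had 4.13 and 1.96 reads per 10000 in sgPrdm12 and 1.39 and 1.55 in sgNTC, from 12 and 4 against 4 and 9 reads. Zfp277, whose product can recruit a Polycomb protein to the Ink4a locus in mouse cells, had 1.03 and 1.47 in sgPrdm12 and 2.09 and 2.93 in sgNTC (chromosome 12, 40445699 to 40446024). Zfp13 (chromosome 17, 23599167 to 23599457) had 2.41 and 0.490 in sgPrdm12 and 2.78 and 2.93 in sgNTC. Zfp414 (chromosome 17, 33628855 to 33629150) had 1.38 and 1.47 in sgPrdm12 and 1.74 and 2.24 in sgNTC. When all peaks with a read were fitted, edgeR's adjusted p of every Zfp peak was 0.89 or higher.

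At other low peaks the replicates of a group often lay far apart. Zfp12 (chromosome 5, 143235199 to 143235627), a first gene of its cluster, had 0.689 and 6.36 reads per 10000 in sgPrdm12 and 2.43 and 1.89 in sgNTC. Zfp566 (chromosome 7, 30090500 to 30090826) had 4.48 and 0.490 in sgPrdm12 and 1.04 and 2.07 in sgNTC. Zfp579 (chromosome 7, 4995773 to 4996079) had 3.10 and 0.490 in sgPrdm12 and 0.696 and 1.72 in sgNTC. In these 3 genes the batches had opposite directions. Zfp653 (chromosome 9, 22071020 to 22071317), whose peak is shared with Ecsit, had 1.72 and 0.979 in sgPrdm12 and 5.22 and 1.55 in sgNTC. It was lower in sgPrdm12 in both batches, with log2 ratios of -1.60 and -0.66. Zfp628, the first gene of the fully marked cluster, had 1.72 and 4.41 in sgPrdm12 and 3.13 and 2.58 in sgNTC (chromosome 7, 4915152 to 4915443). Zfp1 (chromosome 8, 111643389 to 111643848) had close values in all libraries, 2.75 and 2.94 in sgPrdm12 and 2.78 and 3.10 in sgNTC.

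The summed level of all Zfp peaks did not separate the groups. Zfp peaks held 443 and 257 reads in sgPrdm12 replicates 1 and 2 and 410 and 853 reads in sgNTC replicates 1 and 2. Of the library's reads in the table, this is 1.53% (95% Wilson interval 1.39 to 1.67) and 1.26% (1.11 to 1.42) in sgPrdm12. In sgNTC it is 1.43% (1.30 to 1.57) and 1.47% (1.37 to 1.57). The group means were 1.39% ± 0.19 in sgPrdm12 and 1.45% ± 0.030 in sgNTC (SD, n = 2 each). The difference, -0.056 percentage points, was smaller than the spread between the sgPrdm12 replicates, and it was 0.099 in batch 1 and -0.21 in batch 2. Without sgPrdm12 replicate 2 it was 0.078 percentage points, so its sign rests on that library. As a share of reads in gene-end peaks the values were 2.07% and 1.94% in sgPrdm12 and 2.04% and 1.98% in sgNTC, with means of 2.01% ± 0.095 and 2.01% ± 0.043. A two-sided exact permutation test of 2 against 2 libraries has a smallest possible p of 0.33.

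**Figure D5:**
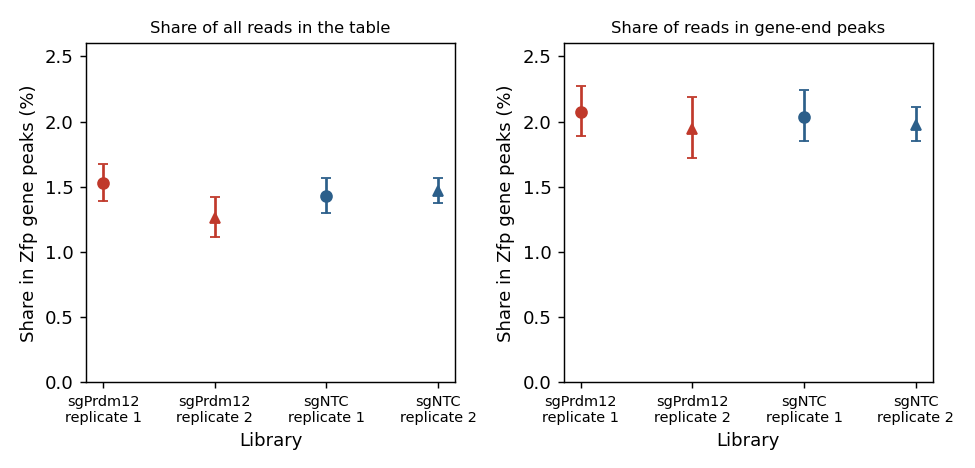
Share of reads in the 39 Zfp peaks in each library, in percent of all reads in the table (left) and of reads in gene-end peaks (right), with sgPrdm12 in red, sgNTC in blue and 95% Wilson intervals as bars. On the left sgPrdm12 replicate 2 is lowest at 1.26%, and on the right all libraries lie between 1.94% and 2.07%.

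Partners of KRAB zinc finger proteins were looked up by the same rule. Of 24 such genes 8 had a peak (33.3%), beside 11.4% of all protein-coding genes, and this difference was not tested. Of the 3 tested peaks 0 passed edgeR's test, and the share passing among all 1125 tested peaks was also 0.0%. Trim28, the corepressor that KRAB domains bind, had 8.95 and 5.39 reads per 10000 in sgPrdm12 and 5.91 and 7.06 in sgNTC (chromosome 7, 13024116 to 13024601), and its log2 fold change was 0.23 ± 0.32. The Trim28 peak is shared with another protein-coding gene. Atf7ip, a partner of Setdb1, had 5.16 and 6.85 in sgPrdm12 and 7.30 and 4.99 in sgNTC (chromosome 6, 136518700 to 136519362), with 0.08 ± 0.38. Cbx5, a heterochromatin protein gene, had -0.21 ± 0.28 and shares its peak with Hnrnpa1. The edgeR adjusted p was 1.00 for all 3. The 5 other genes with a peak, Cbx3, Mphosph8, Morc3, Suv39h2 and Smarcad1, were below the filter, at mean levels of 2.31 to 2.46 reads per 10000. The peaks of Cbx3 and Suv39h2 are also shared with another protein-coding gene. Setdb1 had no peak.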

How the data were processed

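The 4 ATAC-seq libraries of mouse CD8+ T cells were used, 2 with sgPrdm12 and 2 with sgNTC, grouped by their titles. The deposited table lists peaks on GRCm38, with raw read counts per peak per the file headers, and the authors' log2 group means, log2 difference and its standard error. Per the submitters' processing notes, the tools included MACS2, DiffBind, Bowtie2, cutadapt, Picard, ChIPseeker and HOMER. Versions, order and any pooling for peak calling: not given in the sources used here. In the authors' deposited table the log2 differences of the 39 Zfp peaks ran from -1.27 to 0.76, and 0 of their 95% normal intervals excluded 0.

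Gene spans came from RefSeq (GRCm38.p6). Counts were divided by library totals in the table (per 10000) for levels. edgeR 4.0.16 (R 4.3.3) was run on the whole table with filterByExpr (minimum count 10), TMM scaling, a robust quasi-likelihood fit on group alone, and adjustment by Benjamini-Hochberg (threshold 0.05); standard errors are the coefficient over the square root of F. The procedure was run on simulated data whose planted changes were larger than those it fitted at the tested Zfp peaks. Its power at smaller changes was not examined. DESeq2 1.42.0, other scalings and filters, a replicate block and leaving out each library were alternatives. Replicate numbers pair the libraries because the labels tie them to batches; the deviations of replicate 1 from the group means correlated between groups at r = 0.033 across 1334 peaks, which are not independent replicates. Libraries differed by more than sampling noise (chi-square per degree of freedom 1.45 to 1.75), so none was counted as a duplicate. Wilson intervals and limits on a count of 0 cover counting error only, while the intervals of log2 fold changes come from edgeR's fit and include the spread between libraries.

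The members and lists were chosen with earlier results of these data known. Genes were named by rule: the 10 highest peaks, the 5 most positive and 5 most negative log2 fold changes, cluster members, the 5 highest peaks shared with another gene, peaks with a count of 0, and tested KRAB partners. Zfp62, Zfp277, Zfp1 and the neighbours outside the distance limit were chosen after their values were seen, as were the CpG and repeated-sequence measures the TMM scaling of the count of non-overlapping peaks and the remark on cluster ends. Protein features had been planned and were not analysed here.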

Additional observations from a re-analysis of the deposited data

How the results depend on the processing

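No peak, Zfp or other, was called under any of the 10 alternatives (other scalings, filters, DESeq2, the replicate block, leaving out each library); with the replicate block 0 peaks and 0 Zfp peaks were called, so the pairing by batch changed no call. The lowest adjusted p of a tested Zfp peak was 0.71, at Zfp865 without sgPrdm12 replicate 1 (log2 fold change 1.06 ± 0.43). The number of Zfp genes with a peak was 28 for peaks over a gene end, 49 with the gene span included, 54 within 5000 bases and 39 for peaks with reads in every library, all within 1.5 times of 39. The difference in the share of reads, within batches as in the replicate block, came to 0.099 (batch 1) and -0.21 (batch 2) percentage points, and -0.19 to 0.078 on leaving out each library. Of 180 recomputed log2 fold changes of single Zfp peaks 22 changed sign, none of them past the threshold. Zfp180 was -0.034 with library totals, -0.018 without a filter, -0.033 with DESeq2 and -0.12 with the replicate block. Zfp664 was 0.0087 with DESeq2 and 0.017 with the block, and Zfp91 was 0.011 with the block. On leaving out each library the value ran from -0.57 to 0.30 at Zfp180, -1.04 to 0.66 at Zfp263, -1.16 to 0.23 at Zfp367, -0.0057 to 0.53 at Zfp408, -0.76 to 0.57 at Zfp438, -0.21 to 0.78 at Zfp524, -0.70 to 0.58 at Zfp639, -0.18 to 0.13 at Zfp664, -1.85 to 0.18 at Zfp784 and Zfp580, -0.37 to 1.06 at Zfp865 and -0.38 to 0.41 at Zfp91; the cause was not tested. Library totals lowered the median log2 fold change of all tested peaks to -0.05, against 0.020 with TMM. Depth limits every single peak, at a median of 6 to 19 reads per library.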

Other observations

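Other zinc finger gene families, taken by symbol, differed in how often their genes had a peak by the same rule of 1000 bases. Zbtb genes, which carry a BTB domain beside their fingers, had a peak at 10 of 41 (24.4%), and Klf genes at 5 of 17 (29.4%). Zscan genes, which carry a SCAN domain, had none among 16, and Zkscan genes had 1 of 11 (9.09%). Zfp symbols with a letter after the number, which fall outside the set described above, had a peak at 1 of 30 (3.33%). Symbols made of Zfp and letters alone had 2 of 3. The share over all protein-coding genes was 11.4% (2491 of 21900). These shares were not tested, and the genes of a family share sequence and position, so they are not independent.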
